A study of Mus musculus with 5 samples.

Results

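The 10 genes described here encode glycoproteins and proteoglycans of the dermal matrix: Sparc, Fn1, Dcn, Lum, Postn, Fbn1, Eln, Fbln1, Mfap5 and Tnc. They are a list of gene symbols, chosen from 18467 named genes on the array with earlier results of these data known. Every gene probe carrying one of these symbols was read. There were 12 such probes, with 2 for Eln and 2 for Fbln1. The symbol came from the platform annotation for 9 genes and, for Fbn1, from the RefSeq accession in the scanner tables. The samples were back skin from mice of a hairless albino strain, profiled for messenger RNA on 5 one-colour CodeLink arrays, 1 array per group. Of the wild-type (WT) arrays, 1 was from unirradiated skin and the others from skin taken 3 h and 24 h after UVB at 1 kJ per square metre. The Xpa mutant arrays were from skin at the same 2 times after that dose. Xpa is a nucleotide excision repair protein, and its allele and the number of animals behind an array are not given in the sources used here. None of the 5 arrays was from mutant skin without UVB. A difference between mutant and WT skin after UVB therefore cannot be told apart from one already present before it.

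In the dermis, fibroblasts secrete collagen together with a smaller amount of glycoproteins and proteoglycans that set how the collagen and elastic fibres assemble and how cells adhere to them. Decorin and lumican coat collagen fibrils, fibrillin microfibrils scaffold elastin, and matricellular proteins such as SPARC, periostin and tenascin-C act mainly as modulators of matrix assembly and cell adhesion, often in wounds. UVB is absorbed largely in the epidermis, and chronic sun exposure is known for its changes to elastic fibres and collagen in the dermis.

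All levels are log2 values of background-corrected, quantile-normalized intensity, and a difference of 1 is 2-fold. With 1 array in each group there was no test and no replicate check, so a difference compares 2 arrays, and the animal, the piece of skin and the hybridization cannot be told apart from the group. Technical spread within an array was read from repeat spots of 29 positive control probes, which carry the names of bacterial genes. The 26 in the level range of the 10 genes gave an SD of 0.18 for the difference of 2 spots. Between arrays, the mean of a control probe after quantile normalization had a median SD of 0.26. The spot-to-spot spread of 0.18 is thus no measure of the spread between arrays, and it holds no biological variation. In whole skin, fewer cells of a type and less RNA per cell cannot be told apart. Between 23.5% and 25.2% of gene probes were above background on each array. The Xpa probe, read as a check of the labels, read 7.49 in WT skin without UVB and 7.55 in WT skin at 24 h. It was not well above background on the mutant arrays, nor in WT skin at 3 h. At 3 h it therefore did not separate the genotypes, and whether it lies in the mutated part of the gene is unknown here.

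Of the 10 genes, 9 were above background on all 5 arrays and Fbln1 on 3. The second probes of Eln and of Fbln1 were not well above background on any array, so each gene is represented by its brighter probe. The level on the Xpa mutant array at 24 h was the highest of the 5 for 7 of the 10 genes. That count was 5 with median scaling, without Lum and Fbln1, and 2 (Fn1 and Tnc) when the arrays were scaled to the bacterial control probes. Postn and Fbn1 were highest in unirradiated WT skin and Mfap5 on the mutant array at 3 h. Among the 9 genes above background throughout, 6 were highest on the mutant array at 24 h, where 23.8% of 4644 genes with such signal had their highest level. The WT array at 24 h held the lowest level of 4 of the 9, against 20.0% of the 4644 genes.

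**Figure D1:**
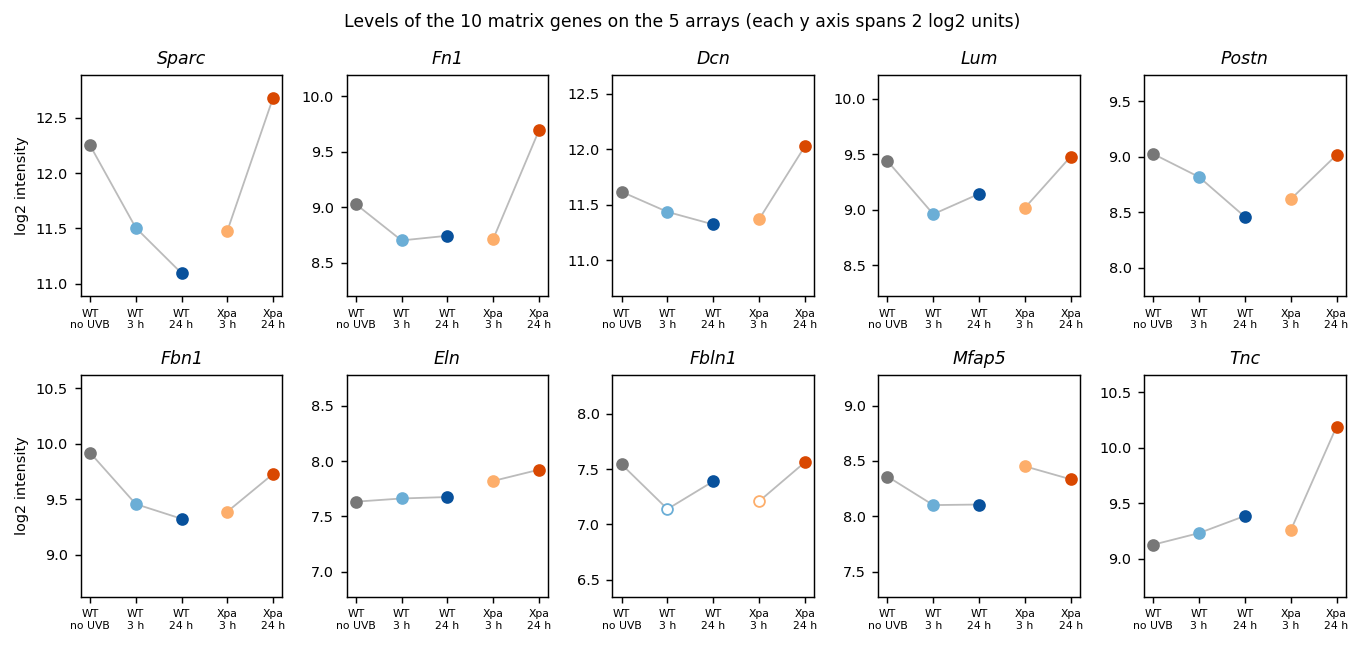
Log2 level (vertical axis) of each of the 10 genes on the 5 arrays (horizontal axis), 1 point per array, with open points where the probe was not well above background. Sparc spans 3.00-fold and Tnc 2.09-fold from the lowest to the highest array, while Eln spans 1.22-fold.

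RefSeq promoter sequence was at hand for 5 of the genes, Sparc, Postn, Fbn1, Fbln1 and Tnc, in 8 windows. The 4 windows below, each of 250 bases ending just before an annotated start site and written 5′ to 3′ along the gene (build GRCm38.p6), are shown so that the genes with the widest and the narrower ranges can be set side by side. Capitals mark the SMAD-binding letters CAGAC, or their reverse complement, and the TATA box letters TATAAA. They lie at chr11:55420081-55420330 (minus strand) for Sparc, chr4:64046937-64047186 (minus strand) for Tnc, chr3:54360857-54361106 (plus strand) for Postn and chr2:125506439-125506688 (minus strand) for Fbn1.
Sparc: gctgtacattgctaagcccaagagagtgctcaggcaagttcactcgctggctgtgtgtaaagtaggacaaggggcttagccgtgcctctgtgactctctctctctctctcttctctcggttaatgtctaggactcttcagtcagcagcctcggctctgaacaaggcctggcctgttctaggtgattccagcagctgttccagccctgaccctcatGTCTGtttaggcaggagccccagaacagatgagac
Tnc: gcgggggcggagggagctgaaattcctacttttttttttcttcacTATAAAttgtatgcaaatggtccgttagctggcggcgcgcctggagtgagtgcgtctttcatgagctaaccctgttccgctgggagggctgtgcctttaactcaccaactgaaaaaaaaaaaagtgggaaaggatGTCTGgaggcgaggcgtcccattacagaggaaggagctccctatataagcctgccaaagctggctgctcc
Postn: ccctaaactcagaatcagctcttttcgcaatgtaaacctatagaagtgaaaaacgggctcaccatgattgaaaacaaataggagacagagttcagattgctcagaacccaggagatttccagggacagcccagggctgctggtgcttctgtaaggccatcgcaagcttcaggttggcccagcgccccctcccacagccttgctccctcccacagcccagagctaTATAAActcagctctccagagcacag
Fbn1: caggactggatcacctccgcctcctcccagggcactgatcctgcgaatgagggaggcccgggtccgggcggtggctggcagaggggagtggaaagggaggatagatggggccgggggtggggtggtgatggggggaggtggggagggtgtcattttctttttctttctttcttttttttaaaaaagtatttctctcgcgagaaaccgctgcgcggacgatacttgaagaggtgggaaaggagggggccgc

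Searched on both strands, CAGAC was found 35 bases before the Sparc start site and 70 bases before that of Tnc in the windows shown. Which window is shown matters here. The other Postn window held CAGAC 191 bases before its start, and the other Tnc window held 0. Both windows of Fbln1, a gene not shown, held it 2 times. TATAAA began 26 bases before the start in the Postn window and 205 bases before it in the Tnc window. The Fbn1 window held neither, and its Sp1 letters GGGCGG began 185 bases before the start. Over the 8 windows of the 5 genes, which overlap for Tnc and for Fbln1, CAGAC was present in 5, TATAAA in 3, GGGCGG in 4 and the AP-1 letters TGANTCA in 0. Over all 32851 RefSeq promoter windows of that length the shares were 42.2%, 12.4%, 32.7% and 6.75%. A match describes the letters and is not a binding site.

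Sparc encodes a collagen-binding matricellular glycoprotein that fibroblasts release where matrix is laid down (chromosome 11). Its level was 12.25 in unirradiated WT skin, 11.51 and 11.10 in WT skin at 3 h and 24 h, and 11.48 and 12.68 in mutant skin at 3 h and 24 h. It was thus lower on the irradiated WT arrays and on the mutant array at 3 h than without UVB. The mutant array at 24 h read 0.43 above the unirradiated one, a difference that was 0.02 in the authors' normalized table and -0.15 under scaling to the control probes. Before any normalization between arrays the background-subtracted Sparc intensities followed the reported order, with 4721 units without UVB, 3057 and 2097 in WT at 3 h and 24 h, and 2993 and 5539 in the mutant. That raw excess of the mutant array at 24 h over the unirradiated one was 0.23 on the log2 scale, while the control probes were shifted by 0.38 between the same arrays. In raw intensity 5 of the 10 genes were highest on the mutant array at 24 h, and Lum and Fbln1 were highest without UVB. Against unirradiated skin Sparc was 1.68-fold lower in WT at 3 h and 2.23-fold lower at 24 h, where it ranked 102nd from the lowest of 7268 genes compared. The mutant exceeded WT by 3.00-fold at 24 h (rank 19 from the highest of 7104), while at 3 h the log2 difference was -0.03.

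Fn1 encodes fibronectin, the adhesive glycoprotein of provisional and interstitial matrix that integrins bind (chromosome 1). Its levels were 9.03 without UVB, 8.70 and 8.74 in WT at 3 h and 24 h, and 8.71 and 9.69 in the mutant at 3 h and 24 h. The 3 h arrays and the WT array at 24 h lay within 0.05 of each other, and the mutant array at 24 h stood 0.67 above the next highest. Mutant over WT was 1.93-fold at 24 h, just short of the 2-fold mark, with rank 138 of 7104.

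Tnc encodes tenascin-C, a matricellular glycoprotein found sparsely in resting skin and prominently in healing wounds (chromosome 4, as is Xpa). Its levels were 9.13 without UVB, 9.23 and 9.39 in WT at 3 h and 24 h, and 9.26 and 10.19 in the mutant at 3 h and 24 h. Unlike Sparc, its lowest array was the unirradiated one, and in WT it was 0.26 higher at 24 h than without UVB. The mutant array at 24 h was 1.75-fold above the WT array (rank 231 of 7104). Postn encodes periostin, a matricellular protein that supports collagen cross-linking (chromosome 3). Its levels were 9.03 without UVB, 8.82 and 8.46 in WT at 3 h and 24 h, and 8.62 and 9.02 in the mutant. The mutant array at 24 h and the unirradiated WT array differed by 0.01, less than the spot-to-spot spread, and the WT array at 24 h was 1.47-fold below the mutant.

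Dcn and Lum encode decorin and lumican, small leucine-rich proteoglycans that bind collagen fibrils and limit their lateral growth. They lie next to each other on chromosome 10 with 0 protein-coding genes between them in the GRCm38.p6 gene table. Dcn had levels of 11.62 without UVB, 11.44 and 11.32 in WT at 3 h and 24 h, and 11.37 and 12.03 in the mutant. Lum had levels of 9.44, 8.96 and 9.14 on the WT arrays without UVB, at 3 h and at 24 h, and 9.02 and 9.48 on the mutant arrays. Both were highest on the mutant array at 24 h, but for Lum that array exceeded the unirradiated one by only 0.04, and with median scaling the difference was -0.02. Lum was lowest at 3 h in WT, whereas Dcn was lowest at 24 h in WT. At 24 h the mutant was above WT by 1.63-fold for Dcn and by 1.26-fold for Lum.

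Of the elastic fibre genes, Fbn1, encoding the microfibril protein fibrillin-1 (chromosome 2), had levels of 9.92 without UVB, 9.46 and 9.32 in WT at 3 h and 24 h, and 9.39 and 9.73 in the mutant. All 4 irradiated arrays were below the unirradiated one, the mutant array at 24 h by the least. Mfap5, which encodes a glycoprotein of the same microfibrils (chromosome 6), had levels of 8.36 without UVB, 8.10 and 8.11 in WT, and 8.45 and 8.33 in the mutant at 3 h and 24 h. The 2 irradiated WT arrays were the lowest, and the mutant was above WT at both times, by 0.35 at 3 h and 0.23 at 24 h. Under scaling to the bacterial control probes the difference at 3 h was 0.14, within the spot-to-spot spread. At 24 h it was then -0.38, and the 2 irradiated WT arrays were no longer the lowest.

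Eln encodes tropoelastin, the soluble precursor of elastin (chromosome 5), and its brighter probe read 7.63 without UVB, 7.66 and 7.68 in WT at 3 h and 24 h, and 7.82 and 7.92 in the mutant. The 3 WT arrays lay within 0.05 of each other, and the mutant array at 24 h was the highest, 0.29 above the unirradiated one. Fbln1 encodes fibulin-1, a glycoprotein that associates with elastic fibres and fibronectin (chromosome 15). Its levels were 7.54 without UVB, 7.39 in WT at 24 h and 7.56 in the mutant at 24 h, and both 3 h arrays were not well above background. In WT at 3 h it was at least 1.32-fold lower than without UVB.

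In WT skin at 3 h, 0 of the 10 genes were at least 2-fold higher or lower than without UVB, where 2.27% of 7148 genes compared were higher and 1.26% lower. A smaller shift was common: 7 of the 10 were lower by more than the spot-to-spot spread of 0.18 and 0 were higher by it, against 31.3% and 25.0% of all genes. The members' median difference was -0.29 and that of all genes -0.03. Sparc, at -0.75, was the most reduced, followed by Lum at -0.48 and Fbn1 at -0.46, while Eln (0.03) and Tnc (0.10) were within the spread. Dcn, at -0.1813, was narrowly within the spread too, which is 0.1815 before rounding, and read -0.02 with median scaling. In WT skin at 24 h, compared with the same unirradiated array, 1 of the 10 genes was at least 2-fold lower (Sparc) and 0 were higher, where 2.22% of 7268 genes were lower and 2.45% higher. Again 7 were lower by more than 0.18, and 1, Tnc, was higher, against 31.9% and 31.8% of all genes. The median was -0.29, beside 0.00 for all genes, and after Sparc the most reduced genes were Fbn1 (-0.60) and Postn (-0.57). Both comparisons use the same unirradiated array, so a high reading on it would move them together.

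From 3 h to 24 h, 0 of the 10 genes differed 2-fold in WT skin in either direction, where 2.09% of 7120 genes were higher and 2.22% lower, and the members' median difference was 0.01. Beyond the spread of 0.18, 2 were higher (Fbln1 and Lum) and 2 lower (Sparc and Postn), against 33.3% and 27.8% of all genes. In mutant skin 1 of the 10, Sparc (2.30-fold), was at least 2-fold higher at 24 h than at 3 h and 0 were lower, where 2.44% of 7090 genes were higher and 3.77% lower. Sparc fell short of 2-fold there under 4 alternatives, at 0.87 with median scaling, 0.77 with control scaling, and 0.84 and 0.85 in the authors' table with and without 50 added. Of the 10 genes, 8 were higher by more than 0.18 and 0 lower, against 35.0% and 30.7% of all genes, and the median difference was 0.43 beside 0.03 for all genes. Fn1 was 1.97-fold and Tnc 1.91-fold higher, whereas Mfap5 (-0.12) and Eln (0.10) were within the spot-to-spot spread. These 2 comparisons share no array.

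**Figure D2:**
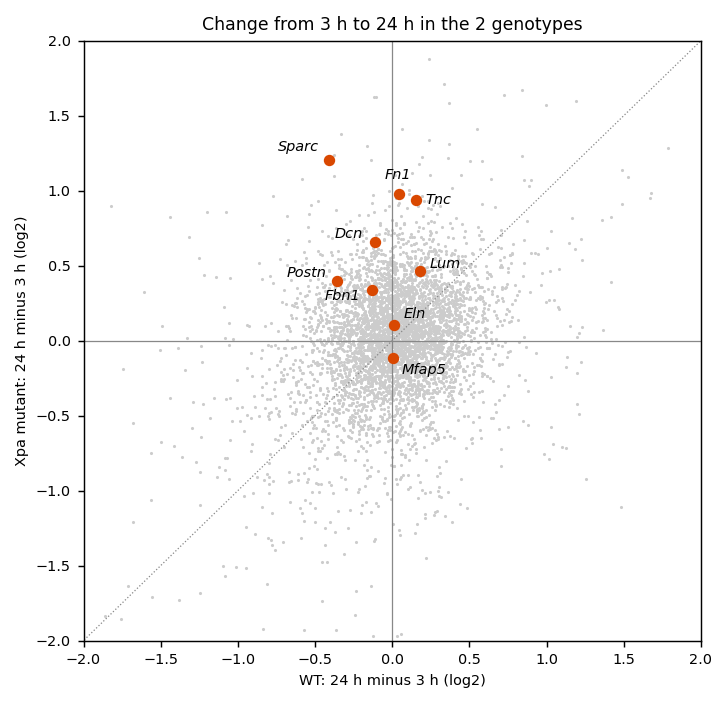
Log2 change from 3 h to 24 h in WT skin (horizontal axis) and in Xpa mutant skin (vertical axis) for 4782 genes above background on all 4 arrays (grey, of which 24 lie outside the axes) and for 9 of the matrix genes (orange), with a dotted line of equal change. Of the 9, 8 lie above the line and Sparc is farthest from it; scaling to the bacterial control probes leaves 6 of the 9 above it.

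The change in the mutant minus the change in WT was available for the 9 genes above background on all 4 irradiated arrays. It was at least 1 for 1 of them, Sparc at 1.61 (rank 19 of 4782), where 1.78% of genes reached that size. It was above 0 for 8 of the 9, against 49.2% of all genes, and its median was 0.76 beside -0.01. Fn1 (0.94), Tnc (0.78), Dcn (0.77) and Postn (0.76) came next, Mfap5 was at -0.12, and Eln at 0.09 was near equal change. With the arrays scaled to the control probes the median was 0.29 and 6 of the 9 were above 0, with Lum and Eln joining Mfap5 below it. This difference of differences was not tested.

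At 3 h, of 9 genes compared, 0 were 2-fold higher or lower in the mutant, where 1.12% of 6863 genes were higher and 0.991% lower, and the median difference was 0.01. Fbln1 was below background on both arrays. Beyond the spread of 0.18 lay 1 gene on each side, Mfap5 at 0.35 and Postn at -0.20, against 26.3% and 26.1% of all genes. The control probes were 0.20 higher on the mutant array at 3 h, with 29 of 29 above 0, and scaling to them put the members' median at -0.21, beside -0.21 for all genes, with 1 of the 9 above 0 and 6 below -0.18. At 24 h 1 of the 10 genes, Sparc, was at least 2-fold higher in the mutant and 0 were lower, where 1.60% of 7104 genes were higher and 2.66% lower. All 10 differences were above 0, against 49.5% of genes, 9 of them by more than 0.18, against 28.9%, and 0 were below -0.18, against 29.7%. The members' differences ran from 0.17 (Fbln1) to 1.58 (Sparc) with a median of 0.48, and the median of all genes was -0.00.

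The level of the array as a whole bears on this comparison. After quantile normalization, which sets the arrays to a common distribution, the 29 bacterial control probes were on average 0.67 higher on the mutant than on the WT array at 24 h, with 29 of 29 above 0. With the arrays scaled to those controls instead, the median of all genes moved to -0.62 and that of the members to -0.18, 4 of the 10 (Sparc, Fn1, Tnc and Dcn) stayed above 0 and the other 6 were below 0. Sparc was then at 0.81 and 0 genes of the 10 were 2-fold higher. Relative to the median of all genes, the members' median was 0.43 under that scaling and 0.49 under the quantile one, with 10 of 10 above it in both. Control scaling shifts all genes of an array by 1 constant, as median scaling does. The 0.43 is therefore the same under both and does not depend on what the control probes read. The higher level of the 10 genes at 24 h is therefore a level relative to other genes on the array. In WT at 24 h against no UVB the control probes went the other way, by -0.24 on average, and scaling to them gave a members' median of -0.073 beside 0.18 for all genes, with Sparc at -0.95, short of 2-fold. The same limit holds for the gene lists and cell-type markers below.

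**Figure D3:**
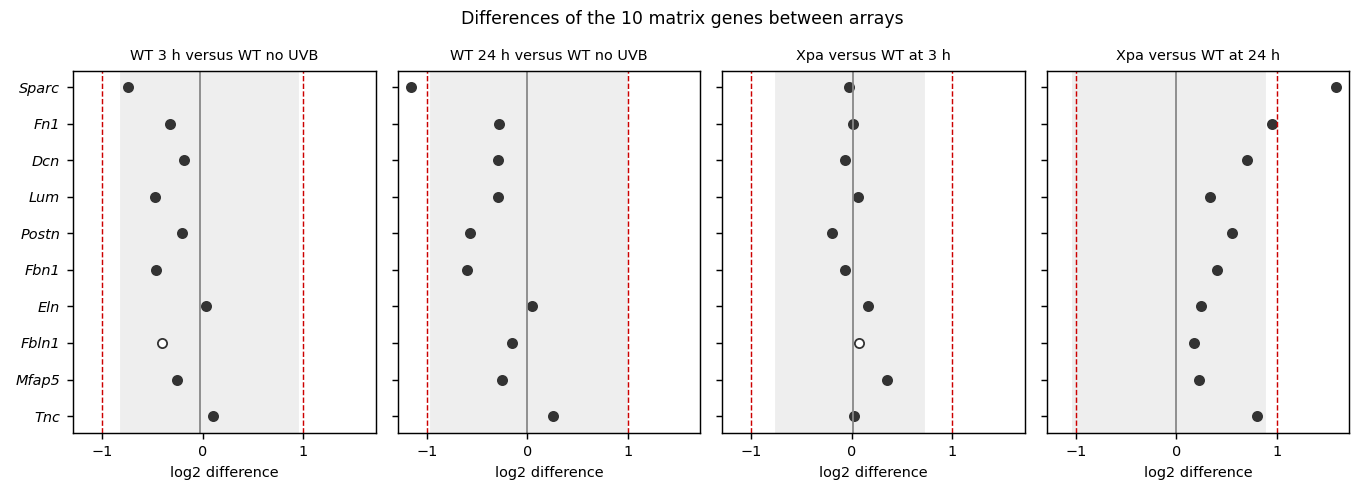
Log2 difference (horizontal axis) of each of the 10 genes in the comparisons of 2 arrays, after quantile normalization, with a grey band for the middle 95% of all genes compared, a line at their median, dashed lines at 2-fold, and open points for Fbln1 where an array was below background. In the mutant against WT at 24 h all 10 points lie above 0, from 0.17 to 1.58, which holds for 4 of the 10 when the arrays are scaled to the bacterial control probes, and at 3 h they scatter around 0, where that scaling leaves 1 of 9 above 0.

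Other matrix genes were read from lists grouped by function, which were also chosen with earlier results of these data known. In mutant against WT skin at 24 h, 8 of 8 further elastic fibre genes above background were above 0, with a median of 0.57, and 0 of 8 reached 2-fold. Loxl1, a lysyl oxidase of elastic fibres, was 1.88-fold and Fbln2, fibulin-2, 1.72-fold higher in the mutant, and Emilin2 was at 0.04. Of 4 genes compared from the list of large and basement membrane proteoglycans, 2 were 2-fold higher. They were Vcan, the hyaluronan-binding versican, at least 2.08-fold and Srgn, the granule proteoglycan serglycin of blood cells, 2.27-fold. The name of the list thus does not describe Srgn. Ncan and Col18a1, the others compared, did not reach 2-fold. Of 3 further small leucine-rich proteoglycans, 0 were 2-fold different, with Bgn (biglycan) 1.43-fold higher and Ogn (osteoglycin) 1.16-fold lower in the mutant. Among 17 matricellular and adhesive glycoproteins 3 passed 2-fold upward by the log2 difference and 0 downward, and the median was 0.17. They were Tnn (tenascin-N, at least 2.33-fold), Thbs3 (thrombospondin-3, at least 1.49-fold) and Tnxb (tenascin-X, at least 1.43-fold), each dim on the WT array, so that the bound can fall short of 2-fold.

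Matrix receptors, which include integrins and syndecans, had 0 of 8 genes at 2-fold and a median of 0.27, with Sdc4 (syndecan-4) highest at 1.35-fold among those above background on both arrays. The TGF-beta pathway, a main inducer of matrix genes in fibroblasts, had 0 of 5 and a median of -0.12. Of 7 enzymes that modify glycosaminoglycans or collagen, 1 was 2-fold higher by the log2 difference, the hyaluronan synthase Has1 (at least 1.25-fold), and 7 of 7 were above 0. All of these counts stand against 1.60% of genes higher and 2.66% lower, and the lists are small.

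In WT skin at 24 h against unirradiated skin, 0 of 9 elastic fibre genes reached 2-fold, with a median of -0.36, and Ltbp4, a latent TGF-beta binding protein, was 1.92-fold lower. Of 15 matricellular and adhesive genes 1 was lower, Tnxb (at least 1.56-fold), with a median of -0.41, and of 4 small leucine-rich proteoglycans 1 was lower, Aspn (asporin, at least 1.29-fold). Itgb5, the integrin beta-5 chain, was at least 2.07-fold lower, the only one of 8 receptors to pass 2-fold. Over all genes 2.22% were lower and 2.45% higher there. At 3 h in WT skin, Ccn1, a matricellular protein encoded by an immediate-early gene, was 2.55-fold higher than without UVB. Has1 (at least 2.57-fold) and Ski, a repressor of SMAD signalling (at least 1.35-fold), were also higher, while Itgb5 was at least 2.08-fold lower. In mutant skin from 3 h to 24 h, Srgn (2.36-fold), Vcan (at least 2.01-fold), Tnn (at least 2.25-fold), Efemp2 (fibulin-4, at least 2.15-fold) and Pcolce, the procollagen C-proteinase enhancer (2.00-fold), were higher. Itga11, a collagen-binding integrin chain (at least 1.34-fold), and B4galt7, an enzyme of glycosaminoglycan synthesis (at least 1.16-fold), were lower.

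Markers of cell types were read on the same arrays, and counts for the mutant against WT at 24 h stand beside 1.60% of all genes higher and 2.66% lower. The 14 fibroblast markers, of which 12 were compared in mutant against WT at 24 h, had 2 higher by 2-fold or more and 0 lower, 9 of the 12 above 0, and a median difference of 0.43. Those 2 were the collagen chains Col1a2 (2.93-fold) and Col1a1 (2.10-fold). The summed intensity of all 14 fibroblast markers was 24790 without UVB, 12681 and 10986 in WT at 3 h and 24 h, and 11706 and 19206 in the mutant. This is the order of the Sparc levels except for the 2 highest arrays. Most of that summed intensity came from the Col3a1 probe. In WT at 24 h against no UVB the 3 fibroblast genes past 2-fold were Col1a1 (3.18-fold), Col1a2 (3.08-fold) and Col3a1 (3.03-fold), all lower, and the median over 12 was -0.07. In that comparison 2.22% of all genes were lower and 2.45% higher.

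Keratinocyte markers took the opposite course at 24 h, with 2 of 7 at least 2-fold lower in the mutant than in WT, Krt16 (2.77-fold) and Krt6a (2.21-fold), and a median of -0.46. Both are keratins of injured epidermis. The summed intensity of the 7 markers was 56068 in WT and 32277 in the mutant at 24 h, against 48006 without UVB. That sum hides opposite courses of single markers. In WT at 24 h against no UVB, Krt6a (26.7-fold) and Krt16 (25.4-fold) were higher. Krt1 (2.81-fold) and Krt10 (2.69-fold) were lower there, and the median over the 7 was -0.30. Over all genes 2.45% were higher and 2.22% lower in that comparison. Macrophage markers were higher on both 24 h arrays, with sums of 2990 in WT and 3303 in the mutant against 1434 without UVB, and in the mutant against WT at 24 h their median was 0.07 over 6, with 4 above 0 and Cd14 (2.28-fold higher) the 1 past 2-fold. Skeletal muscle markers were lower on both 24 h arrays, with sums of 33827 in WT and 33225 in the mutant against 57542 without UVB. Endothelial markers (median 0.39 over 5) and smooth muscle and pericyte markers (median 0.35 over 6) were also higher in the mutant at 24 h, with 0 at 2-fold, while adipocyte (0.18 over 6) and skeletal muscle markers (0.06 over 8) differed less. The part of these differences in cell-type markers in the levels of the 10 matrix genes was not tested.

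**Figure D4:**
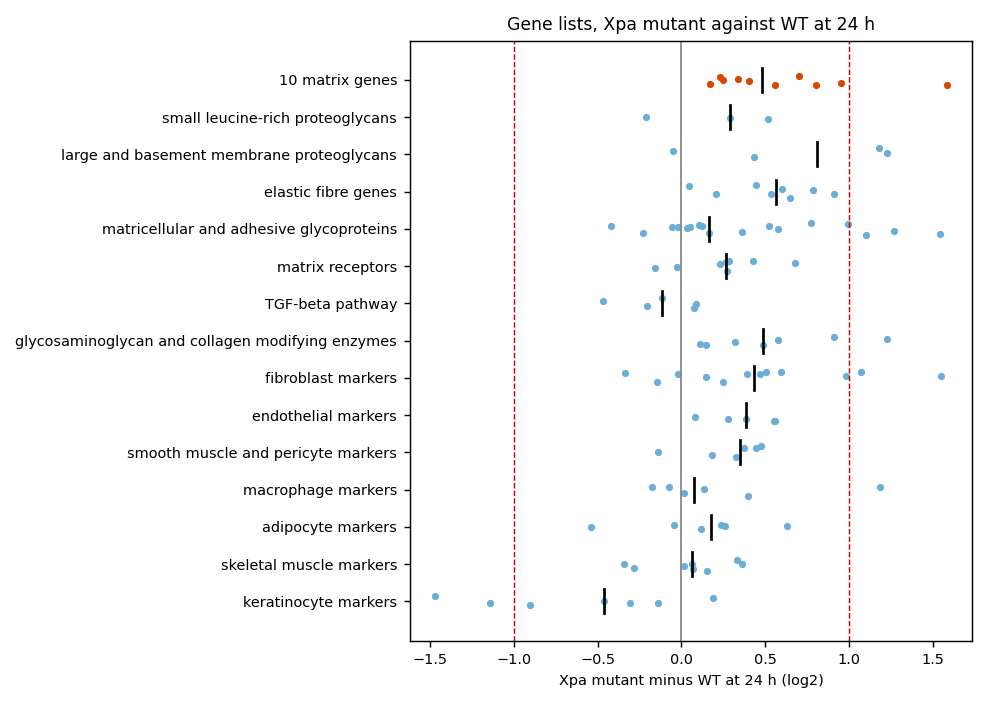
Log2 difference of the Xpa mutant against WT at 24 h (horizontal axis) for the genes of each list that were compared, with 1 point per gene, a black bar at the list median, a line at the median of all genes and dashed lines at 2-fold. The medians run from -0.46 for keratinocyte markers to 0.81 for the list of large and basement membrane proteoglycans, after quantile normalization. That list includes Srgn, a granule proteoglycan of blood cells. Scaling to the bacterial control probes puts the median of all genes at -0.62.

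The 9 genes above background throughout did not share a single profile. Centred on their own means, Postn and Fbn1 were the closest pair (Euclidean distance 0.21 over 5 arrays), followed by Lum with Fbn1 and Eln with Mfap5 (0.28 each). The mean centred profile was 0.12 without UVB, -0.16 and -0.23 in WT at 3 h and 24 h, and -0.14 and 0.41 in the mutant. Among 4644 named genes the nearest to it were Scai (0.078), Crip1 (0.11), Bmt2 (0.12), Dsel (0.12) and Rnase4 (0.13). For single members the nearest gene was Serpinh1, the collagen chaperone Hsp47, for Sparc at a distance of 0.49, Loxl1 for Fn1 (0.13), Plvap for Tnc (0.064) and Ndufs3 for Dcn (0.066). The others were Tepsin for Lum (0.097), D5Ertd579e for Postn (0.062), Brd3 for Fbn1 (0.11), Kcng3 for Eln (0.054) and Laptm4a for Mfap5 (0.069). No named gene came closer than 0.49 to Sparc, while each of the other 8 had a gene at 0.13 or less. The levels were centred but not scaled, so the distance grows with the size of the changes. Sparc had the widest range of the 9, at 1.58.

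**Figure D5:**
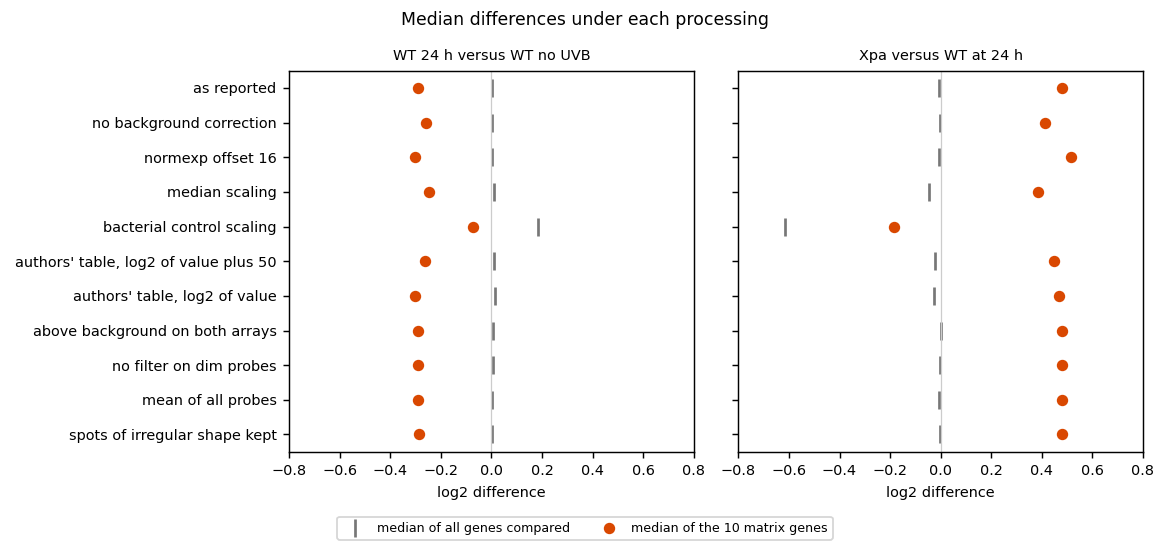
Median log2 difference of the 10 genes and of all genes compared (horizontal axis) under each way of processing the values (vertical axis), in WT at 24 h against no UVB (left) and in the mutant against WT at 24 h (right). Scaling to the bacterial control probes moved the mutant against WT median at 24 h to -0.18, and the members' median stayed above that of all genes in that comparison under the 11 settings shown.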

How the data were processed

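Total RNA of mouse back skin was hybridized to 5 one-colour CodeLink arrays labelled with Cy5. Per the file headers, the authors quantified the deposited spot intensity with CodeLink Expression Analysis 5.0.0.31312, and the tables give the spot mean, the median local background and a quality flag for 36227 spots per array. The authors also deposited a normalized intensity table on a linear scale, with a median of 46.26 in each array and no centring per gene, which served as an alternative. The sources used here do not name its software. Its direction follows from the scanner tables.

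The normexp model of limma 3.58.1 (R 4.3.3, saddle-point estimates, offset 50), fitted on all unmasked spots, removed the background. After masked or irregular spots were left out, 34743 gene probes were quantile normalized and taken to log2. The brightest probe stood for a gene. A probe was above background when the scanner had not flagged it as low, and comparisons took genes with such signal on 1 or both of the 2 arrays. If the dimmer array lacked it, the fold is a lower bound ("at least"): the bright value is divided by the dim value or, if larger, by the faintest named gene measured on the dim array. The main setting counts a log2 difference of at least 1. No test, standard error or p-value is possible with 1 array per group, and the number of arrays limits the precision.

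The platform annotation gave 1 symbol to 21471 kept probes, several to 678, and 533 were named through a RefSeq accession, while 12061 stayed unnamed here. Genes named in the text are all 10 members, the members of other lists at least 2-fold different or otherwise the 2 highest and 2 lowest, the 5 genes nearest to the mean profile, the nearest gene of each member, and Xpa. From these, the text gives a selection. The members and lists were chosen with earlier results of these data known. Promoter sequences are RefSeq's (GRCm38.p6), cut to 250 bases before the start site. The scripts were tested on simulated data. Other steps used Python 3.11.15, numpy 2.4.6 and pandas 2.3.3.

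Alternatives were no background correction, an offset of 16, median scaling, scaling to the bacterial control probes, the authors' table with 50 added or as deposited, other filters on dim probes, the mean over a gene's probes, and irregular spots kept.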

Additional observations from a re-analysis of the deposited data

Results flagged for a closer look

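For Sparc and Postn the change from 3 h to 24 h went opposite ways in the 2 genotypes, by more than the spot-to-spot spread of 0.18 each way. Sparc was 0.41 lower at 24 h than at 3 h in WT skin (log2 difference -0.41) and 1.20 higher in mutant skin, so that the mutant change exceeded the WT change by 1.61. Postn had changes of -0.36 in WT and 0.40 in the mutant, which differ by 0.76. Under scaling to the bacterial control probes the Postn change in WT was -0.060, within the spread, and those of Sparc were -0.26 and 0.77. With 1 array per group neither difference was tested.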

How the results depend on the processing

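No paired analysis was possible because each group has 1 array. Of 587 differences of single members recomputed under the 10 alternatives, 568 kept their sign, and 0 of the differences of at least 2-fold changed sign. By size, 536 moved by less than the spot-to-spot spread and 51 by more, 39 of these under scaling to the bacterial control probes. The 536 include 56 and 59 from the 2 other filters on dim probes. Those filters change only which genes are compared, so these differences could not move. The mean over a gene's probes could move only Eln and Fbln1.

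Under that scaling the members' median became -0.073 in WT at 24 h and 0.31 from 3 h to 24 h in WT. It became -0.21 and -0.18 in the mutant against WT at 3 h and 24 h, and 0.29 for the mutant change minus the WT change. Sparc then passed 2-fold in none of its 3 comparisons, so that 0 genes were lower in WT at 24 h, 0 higher in the mutant from 3 h to 24 h, and 0 higher in the mutant than in WT at 24 h. With an offset of 16, 2 genes, Sparc and Fn1, were higher in each of the last 2 comparisons, and the authors' values without an added 50 also gave 2 in the mutant against WT at 24 h. From 3 h to 24 h in the mutant those values kept the count of 1, but the gene was Fn1 (1.07) and not Sparc (0.85). Median scaling gave 0 higher in the mutant from 3 h to 24 h. The authors' table with 50 added also gave 0 there, and 0.58 for the median of the mutant change minus the WT change.

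Counts over all genes depend on the processing: in the mutant against WT at 24 h, 114 were higher and 189 lower, against 32 and 75 without background correction, 236 and 315 with the offset of 16, 15 and 1054 with control scaling, 294 and 400 in the authors' values, and 39 and 99 where both arrays had to be above background. The share of higher genes among these calls was 37.6%, and 1.4% with control scaling. Control scaling moved that share from 64.3% to 47.8% in WT at 3 h, from 52.5% to 75.5% in WT at 24 h, from 48.5% to 85.1% between these times in WT, from 39.3% to 25.7% between them in the mutant, and from 53.1% to 25.3% in the mutant against WT at 3 h. Over the alternatives, 50 to 330 genes were higher and 11 to 307 lower in WT at 3 h (162 and 90 as reported), and 64 to 400 and 52 to 396 in WT at 24 h (178 and 161). From 3 h to 24 h the counts ran from 35 to 420 and 53 to 357 in WT (149 and 158), and from 44 to 434 and 108 to 516 in the mutant (173 and 267). For the mutant against WT at 3 h they ran from 18 to 206 and 4 to 222 (77 and 68). Signal over background limits Eln and Fbln1 most, whose levels lie nearest to the lowest measured genes.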
